A study of Homo sapiens with 12 samples.

Results

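LN229 cells, an established human glioblastoma line, were transfected with siRNA against HIF1A or against HIF2A (gene symbol EPAS1) and kept in hypoxia, and the transcripts of the 2 knockdowns were compared directly. The comparison rested on 6 of the 12 arrays of the series, chosen by their sample labels: 3 with HIF1A siRNA and 3 with HIF2A siRNA. Cells of every group were transfected 24 h after seeding, moved 48 h later to the stated oxygen level and harvested after 16 h. Both knockdown groups were in 1% oxygen. The other 6 arrays, used as reference levels and for the estimate of spread, came from cells with non-targeting siRNA, 3 in 1% oxygen (the hypoxic controls) and 3 in 20% oxygen (the normoxic controls). All 12 arrays thus came from transfected cells of a single tumour line, and each knockdown was transient. The sequences of the siRNAs were not used here.

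The proteins HIF-1A and HIF-2A, encoded by HIF1A and EPAS1, are the subunits of the hypoxia-inducible factors whose amount depends on oxygen. In oxygen, prolyl hydroxylases mark both proteins for destruction through VHL. In hypoxia each can accumulate, pair with ARNT and bind the hypoxia response element, a short motif with the core ACGTG or GCGTG. In many cell types HIF-1A is known for the genes of glycolysis and BNIP3-type mitophagy, HIF-2A for erythropoietin and for some growth and vascular genes, and the 2 share other targets. In glioblastoma both have been linked to growth in poorly oxygenated tumour regions, and the study asked what depends on which subunit.

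Values were deposited on a scale read as log2, 1 value per probe set and array, and covered 14232 genes with a probe set of a single symbol. A difference is the mean log2 value with HIF1A siRNA minus that with HIF2A siRNA, so a negative difference means a lower transcript with HIF1A siRNA. Its error is the standard error (SE) of the limma fit, with n = 3 arrays per group. Calls were made at 0.05 on the p adjusted over all 14232 genes. The labels number the replicates without saying whether each was its own culture. The p-values therefore reflect the spread between arrays, which may be technical. Across probe sets, arrays of the same group correlated at r = 0.983 to 0.994, and HIF1A siRNA arrays with HIF2A siRNA arrays at 0.964 to 0.990. The values of the HIF1A siRNA arrays spanned less. Their upper quartiles were 8.22, 8.20 and 7.88, against 8.44, 8.24 and 8.44 with HIF2A siRNA, and their interquartile ranges were 3.45, 3.43 and 3.15 against 3.65, 3.47 and 3.67. Results are therefore given on the deposited scale and again after quantile normalization, which gives every array the same distribution. Among markers of the line, the glial genes S100B and SOX10 averaged 10.6 and 10.4 over the 12 arrays. GFAP, the intermediate filament of astrocytes, averaged 6.37, below the median of every array.

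Each targeted transcript was lower in the group labelled with its siRNA. HIF1A measured 8.20, 9.06 and 7.74 on the 3 HIF1A siRNA arrays and 11.31, 11.01 and 11.45 on the 3 HIF2A siRNA arrays. The groups did not overlap, and the difference of -2.93 (SE 0.27, limma adjusted p = 2.3e-04) corresponds to a 7.60-fold lower level. EPAS1 measured 8.60, 8.08 and 8.02 with HIF1A siRNA against 7.18, 6.99 and 7.18 with HIF2A siRNA. It was 2.16-fold higher with HIF1A siRNA (difference 1.11, SE 0.15, adjusted p = 0.0017), again without overlap. HIF1A siRNA did not leave EPAS1 at its hypoxic control level, which was 9.74, 9.57 and 9.83. Both siRNA groups therefore lay below the hypoxic controls for EPAS1, while HIF1A with HIF2A siRNA averaged 11.26 against 11.46 in the controls. After quantile normalization the differences were -2.68 for HIF1A and 1.38 for EPAS1.

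**Figure D1:**
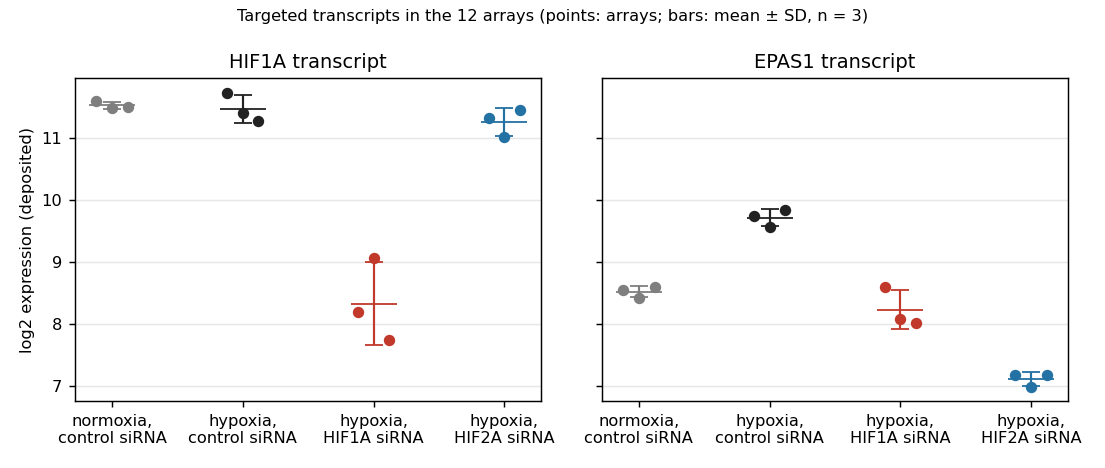
Log2 values of HIF1A and EPAS1 on each of the 12 arrays, by group, with points for arrays and bars for the group mean ± SD (n = 3). HIF1A is low with HIF1A siRNA alone (7.74 to 9.06), whereas EPAS1 is lowest with HIF2A siRNA (6.99 to 7.18) and intermediate with HIF1A siRNA (8.02 to 8.60).

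Most transcripts that separated the 2 knockdowns on the deposited scale were lower with HIF1A siRNA. Limma called 1214 genes lower with HIF1A siRNA than with HIF2A siRNA (8.53% of genes tested) and 128 higher (0.899%). Of these, 932 were at least 1.5-fold lower (6.55%) and 35 at least 1.5-fold higher (0.246%). The counts rested on the spread pooled over the 12 arrays and on single arrays. Fitting the 6 arrays alone gave 123 lower and 4 higher. Leaving out 1 array gave 254 lower without HIF2A siRNA replicate 1, 295 without HIF2A siRNA replicate 3, 383 without HIF1A siRNA replicate 3 and 2338 without HIF1A siRNA replicate 2. The balance of the calls moved with the scale. After quantile normalization 981 genes were lower (6.89%) and 799 higher (5.61%), so that higher genes made up 44.9% of the calls in place of 9.54%. At 1.5-fold the counts were then 594 (4.17%) and 186 (1.31%). With cyclic loess the counts were 1019 and 530, and median-centring of the arrays gave 1086 and 654. The median difference over all genes was -0.06 as deposited and 0.08 after quantile normalization, a shift of 0.14. The gene lists are read against these medians. Both scales called 934 genes lower and 128 higher. Without adjustment, 4590 of the 14232 genes had a limma p under 0.05 on the deposited scale, in either direction.

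The dependence on scale followed the brightness of the genes, cut into 4 equal groups by mean level. In the dimmest group the median difference was 0.09 as deposited, in the next 0.08, in the third -0.21 and in the brightest -0.26. After quantile normalization the 4 medians were 0.11, 0.15, 0.02 and -0.02. The share of genes called lower rose from 1.12% in the dimmest group to 13.9% in the brightest on the deposited scale. Whether the narrower range of the HIF1A siRNA arrays comes from the cells or from the arrays was not tested.

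The 2 knockdowns were far apart in how many genes they moved from the hypoxic controls. On the deposited scale HIF1A siRNA lowered 1451 genes (10.2%) and raised 122 (0.857%) against the hypoxic controls. Its counts after quantile normalization are not given here. The balance of lower and higher calls may move with the scale, as it did between the siRNA groups. HIF2A siRNA against the same controls gave 1 call, its target EPAS1 (0.00703% of genes, with 247 lower and 255 higher at an unadjusted p under 0.05), and 3 lower (0.0211%) and 1 higher (0.00703%) after quantile normalization. All 3 HIF1A siRNA values lay below and all 3 HIF2A siRNA values above the 3 hypoxic controls in 56 genes (0.393%), and the reverse held in 17 (0.119%). These counts share the 3 control arrays, and the direct comparison of the 2 siRNA groups does not use those arrays except for the estimate of spread.

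Of the 15 genes with the largest negative differences, HIF1A among them, 11 rose in hypoxia in the control cells, against 3.37% of all genes. BEND5, which encodes a BEN domain protein, measured 6.64, 6.40 and 6.35 with HIF1A siRNA and 10.16, 9.38 and 10.19 with HIF2A siRNA. The HIF1A siRNA arrays lay near the normoxic mean of 5.90 and the HIF2A siRNA arrays around the hypoxic control mean of 9.82. The difference of -3.45 (SE 0.21, adjusted p = 6.6e-05) was 10.9-fold. TMEM45A, a transmembrane protein gene, measured 8.31, 8.48 and 7.44 against 11.05, 10.80 and 11.26 (difference -2.96, SE 0.25, adjusted p = 1.2e-04). NRN1, which encodes the neurite growth factor neuritin, measured 7.06, 6.85 and 6.14 against 9.79, 9.39 and 9.70 (difference -2.94, SE 0.21). In these 3 genes every HIF1A siRNA array lay below every HIF2A siRNA array, which was a condition for the 15. Of all genes 18.7% met it. The reverse order held in 11.8%.

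HILPDA, an inhibitor of triglyceride breakdown at lipid droplets, measured 7.70, 7.57 and 7.20 with HIF1A siRNA and 9.93, 9.53 and 10.01 with HIF2A siRNA (difference -2.33, SE 0.16, adjusted p = 6.9e-05). FAM162A, a mitochondrial protein gene known as a HIF-1 target, measured 8.39, 8.02 and 7.45 against 10.33, 9.87 and 10.63 (difference -2.32, SE 0.24). PPP1R3C, which brings protein phosphatase 1 to glycogen, measured 7.92, 7.97 and 7.30 against 9.90, 9.69 and 9.79 (difference -2.06, SE 0.17). The secreted hormone gene STC1 measured 9.04, 9.24 and 8.68 against 10.91, 10.78 and 11.01 (difference -1.91, SE 0.14). The groups were apart in each of these genes by the same condition. Their HIF2A siRNA values lay close to the hypoxic control means of 9.66, 10.09, 9.70 and 11.13.

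B3GALT2, a galactosyltransferase of protein glycosylation, differed by -2.38, GLRX, the thiol reductant glutaredoxin, by -2.02, the non-coding transcript LINC01587 by -1.96 and the orphan receptor gene GPR146 by -1.94. GPR160, an orphan receptor gene, measured 3.54, 3.05 and 3.37 with HIF1A siRNA and 5.36, 5.13 and 5.97 with HIF2A siRNA, so its HIF1A siRNA values lay under 4.77, the lower quartile of all values. NEBL, which encodes the actin-binding protein nebulette, was as dim, at 3.12, 3.61 and 3.47 against 5.14, 5.03 and 6.08. No background level came with the values, so the sizes of these 2 differences are uncertain. ARLN, a gene for a small membrane protein, was the most variable of the 15. It measured 7.85, 8.99 and 6.48 against 10.57, 10.25 and 11.70 (difference -3.07, SE 0.58, adjusted p = 0.012). With the dimmer of its single-symbol probe sets ARLN differed by -1.06 (adjusted p = 0.0021). NEBL and ARLN lost their calls without HIF2A siRNA replicate 3, with adjusted p = 0.0551 for NEBL. The calls of the other 13 genes held under each alternative tried.

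**Figure D2:**
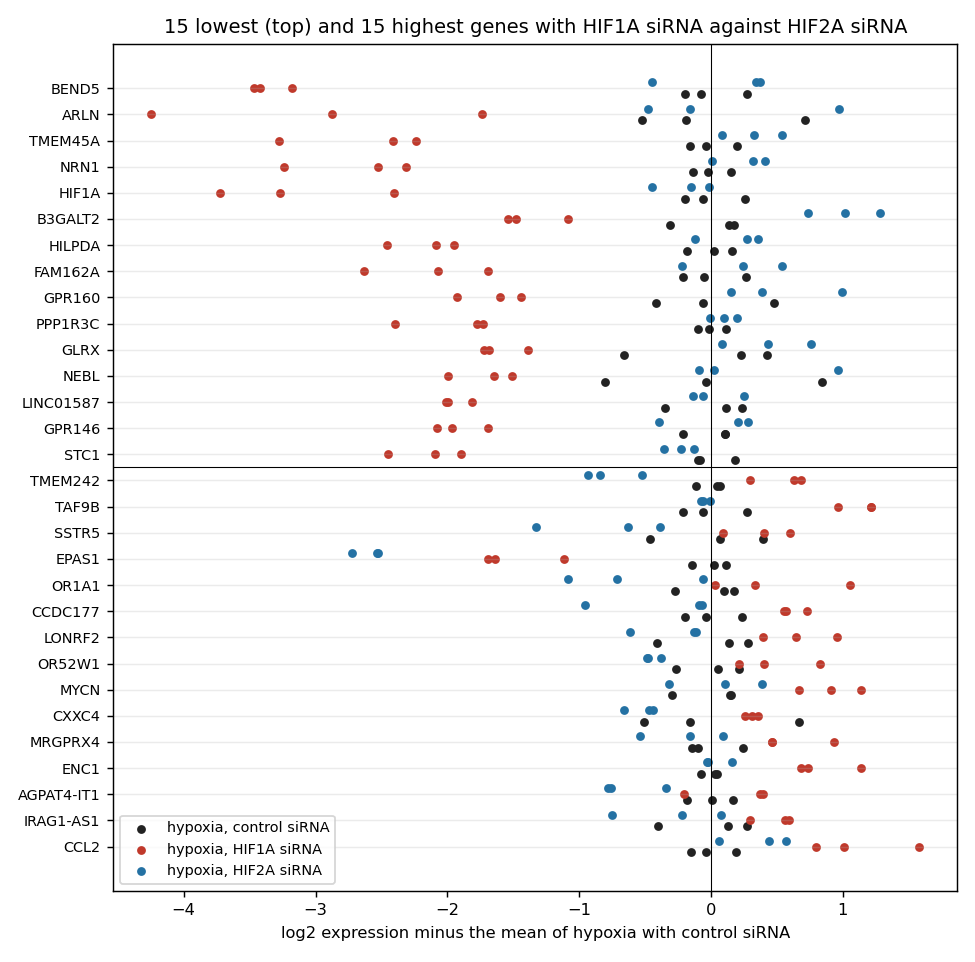
Log2 values per array minus the gene's hypoxic control mean (horizontal), for the 15 genes with the largest negative (top) and the 15 with the largest positive difference. They were picked among genes called on both scales without overlap between the siRNA groups. Points are arrays of the HIF1A siRNA, HIF2A siRNA and hypoxic control groups, and the line at 0 is the control mean. The differences run from -3.45 to -1.91 for the lower genes and from 0.77 to 1.30 for the higher genes.

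Promoter sequence was set beside the expression values for the genes with an entry in the RefSeq promoter table of GRCh38.p14, which held 11386 of the 14232 genes. The window was the 250 bases before the annotated start, and the motif searched was ACGTG on either strand, the first of those cores, which overlaps the E-box CACGTG. It was present in 18.7% of all 27305 promoters of the table and in 21% of those of the genes tested. Of genes called lower with HIF1A siRNA, 1025 of 1214 had a promoter and 27.9% of these held the motif. Of genes called higher, 96 had one and 21.9% held it. The lower genes' promoters were also slightly richer in G and C, with a median of 64.8% against 63.2% for all genes. Of genes raised at least 1.5-fold by hypoxia and called lower, 198 had a promoter, of median GC content 67.4%, and 31.3% held the motif. Of lower genes that hypoxia did not raise by that much, 27.1% of 827 promoters held it, and of raised genes that were not called, 22% of 59. The other core, GCGTG, gave a different order. It was present in 40.2% of promoters of all genes tested, 46.3% of lower, 29.2% of higher and 43.4% of raised and lower genes, against 45.8% of raised genes not called and 47.0% of lower genes not raised. Counting ACGTG matches outside CACGTG, the shares were 21.4% for lower genes and 14.4% for all genes. These shares are descriptions, and a match is not evidence of binding.

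These 6 promoters are shown because their genes were among those with the largest differences or the largest hypoxic rises, 5 picked because they hold the motif and BEND5 because it does not. The letters run 5′ to 3′ on the gene's strand, and capitals mark ACGTG or its reverse complement CACGT, joined as CACGTG where they overlap. FAM162A lies at chr3:122383932-122384181, plus strand, PPP1R3C at chr10:91633072-91633321, minus strand, ALDOC at chr17:28576896-28577145, minus strand, ENO2 at chr12:6914330-6914579, plus strand, ANGPTL4 at chr19:8363905-8364154, plus strand, and BEND5 at chr1:48776892-48777141, minus strand, all in GRCh38.p14.
FAM162A: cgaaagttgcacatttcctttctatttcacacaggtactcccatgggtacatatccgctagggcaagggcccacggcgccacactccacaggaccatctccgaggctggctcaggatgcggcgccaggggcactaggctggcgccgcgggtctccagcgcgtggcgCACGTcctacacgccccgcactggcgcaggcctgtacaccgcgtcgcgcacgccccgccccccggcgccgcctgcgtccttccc
PPP1R3C: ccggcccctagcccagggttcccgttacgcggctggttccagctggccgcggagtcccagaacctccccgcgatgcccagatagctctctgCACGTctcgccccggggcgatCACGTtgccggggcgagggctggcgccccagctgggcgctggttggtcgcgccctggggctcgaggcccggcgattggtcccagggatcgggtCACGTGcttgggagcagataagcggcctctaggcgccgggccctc
ALDOC: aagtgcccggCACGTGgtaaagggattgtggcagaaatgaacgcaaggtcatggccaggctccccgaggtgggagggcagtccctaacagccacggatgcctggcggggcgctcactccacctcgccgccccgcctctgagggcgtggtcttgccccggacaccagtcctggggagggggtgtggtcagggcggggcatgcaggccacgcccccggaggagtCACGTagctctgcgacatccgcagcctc
ENO2: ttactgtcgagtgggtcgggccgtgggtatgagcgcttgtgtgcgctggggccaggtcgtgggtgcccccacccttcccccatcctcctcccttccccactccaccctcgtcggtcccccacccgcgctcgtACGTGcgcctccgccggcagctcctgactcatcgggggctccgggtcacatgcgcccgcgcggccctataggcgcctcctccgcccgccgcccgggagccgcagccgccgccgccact
ANGPTL4: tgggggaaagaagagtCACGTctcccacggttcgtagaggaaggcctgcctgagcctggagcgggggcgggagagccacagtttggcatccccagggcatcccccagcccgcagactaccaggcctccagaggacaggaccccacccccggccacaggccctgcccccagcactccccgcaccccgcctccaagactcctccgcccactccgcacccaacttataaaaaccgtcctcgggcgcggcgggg
BEND5: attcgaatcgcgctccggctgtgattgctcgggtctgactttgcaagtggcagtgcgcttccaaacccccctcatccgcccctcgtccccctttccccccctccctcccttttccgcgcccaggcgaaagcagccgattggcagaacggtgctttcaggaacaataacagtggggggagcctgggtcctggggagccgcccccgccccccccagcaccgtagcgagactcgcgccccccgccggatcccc
PPP1R3C held 3 separate matches, 1 of them the E-box form, and ALDOC held 2, FAM162A, ENO2 and ANGPTL4 1 each. Of the 15 genes lowest with HIF1A siRNA, 13 were in the table and 4 held the motif. Of the 15 highest, 11 were in the table and 5 held it. The gene with the largest difference, BEND5, had no match in this window, which says only that these letters are not in these 250 bases.

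Genes higher with HIF1A siRNA than with HIF2A siRNA were fewer on the deposited scale and differed less. TAF9B, which encodes a subunit of the TFIID transcription complex, measured 8.67, 8.67 and 8.42 with HIF1A siRNA and 7.38, 7.40 and 7.45 with HIF2A siRNA (difference 1.18, SE 0.14, adjusted p = 0.0011). Its hypoxic control mean was 7.46 and its normoxic mean 9.31, so the HIF1A siRNA arrays lay between the 2 oxygen levels. ENC1, an actin-binding gene of the nervous system, measured 9.40, 9.0 and 8.95 against 8.23, 8.24 and 8.42 (difference 0.82, SE 0.13, adjusted p = 0.0048). LONRF2, a RING finger gene, measured 8.21, 7.90 and 7.65 against 7.14, 6.65 and 7.13 (difference 0.95, SE 0.20). Groups without overlap were a condition for these genes too, and hypoxia lowered each of the 3. Of the 15 genes with the largest positive differences, 5 fell in hypoxia in the control cells, 1 rose and 9 were not called. Over all genes 8.95% fell and 3.37% rose.

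The transcription factor gene MYCN measured 8.44, 8.68 and 8.91 with HIF1A siRNA against 8.16, 7.88 and 7.45 with HIF2A siRNA (difference 0.85, SE 0.19, adjusted p = 0.025). With its other single-symbol probe set the difference was 0.16. The chemokine gene CCL2 measured 10.12, 10.70 and 9.91 against 9.69, 9.18 and 9.56 (difference 0.77, SE 0.19, adjusted p = 0.035). FASN, the fatty acid synthase, was higher as well at 9.83, 9.59 and 9.57 against 9.17, 9.07 and 9.11 (difference 0.54, SE 0.10, adjusted p = 0.0089). TMEM242, a mitochondrial membrane protein gene, differed by 1.30 (SE 0.23), at 5.53, 5.15 and 5.48 against 3.92, 4.01 and 4.33. Of the other genes among the 15 highest, the olfactory receptor genes OR1A1 and OR52W1 differed by 1.09 and 0.93, the somatostatin receptor gene SSTR5 by 1.15, CCDC177 by 0.99 and CXXC4 by 0.83. The receptor gene MRGPRX4 and the non-coding transcripts AGPAT4-IT1 and IRAG1-AS1 differed by 0.82, 0.81 and 0.78. OR1A1, CCDC177 and CXXC4 averaged below 4.77. The alternatives were followed for a set of genes chosen by rule. Some of these are not named here, and some genes named here were not followed. Of the 21 followed genes called higher, EPAS1 and TAF9B kept their calls under every alternative, ENC1 and FASN lost theirs when just the 6 arrays were fitted, and each of the other 17 lost its call under at least 1 alternative. Without HIF2A siRNA replicate 1, 8 of the 21 kept their calls, and likewise 8 without HIF2A siRNA replicate 3.

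The 2 knockdowns separated most at the genes that hypoxia raised. The hypoxic response was taken from the control arrays, none of which is a sample of either siRNA group, although all 12 arrays share the estimate of spread. Limma called 304 genes at least 1.5-fold higher in hypoxic than in normoxic controls (2.14% of genes). Of these, 229 were lower with HIF1A siRNA than with HIF2A siRNA (75.3%, against 8.53% of all genes), 1 was higher, the siRNA target EPAS1, and 74 were not called. Their median difference was -0.81, and 292 of the 304 were below zero. They made up 18.9% of all genes called lower. After quantile normalization 449 genes were raised (3.15%), 266 of them lower with HIF1A siRNA (59.2%, against 6.89%) and 1 higher, with a median of -0.52 against 0.08 for all genes. At a 2-fold rise the shares were 108 of 117 (92.3%), with a median of -1.09.

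The difference between the knockdowns grew with the size of the hypoxic rise. All 22 genes that rose by over 2 log2 units were called lower, with a median difference of -1.66. Of 97 genes with a rise of 1 to 2, 88 were lower (90.7%), with a median of -1.05. Of 240 genes with a rise of 0.58 to 1, 143 were lower (59.6%), with a median of -0.65. Among genes with a rise of 0 to 0.58 the share was 9.05%, and among those with a fall of 0 to 0.58 it was 5.58%.

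**Figure D3:**
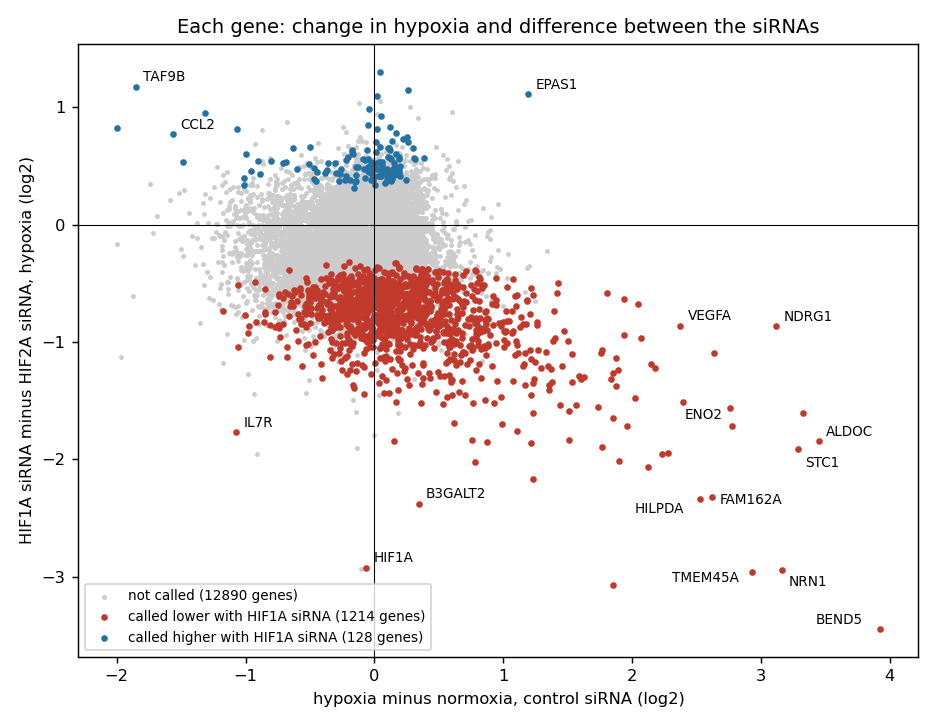
Each point is a gene, placed by its log2 change in hypoxic against normoxic controls (horizontal) and by its log2 difference HIF1A siRNA minus HIF2A siRNA (vertical). Genes far to the right lie low: the 22 genes that rose by over 2 have a median difference of -1.66. EPAS1, at 1.11, is the 1 hypoxia-raised gene called higher.

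Genes that hypoxia lowered did not mirror this on the deposited scale. Of 831 genes at least 1.5-fold lower in hypoxia (5.84% of genes), 31 were lower with HIF1A siRNA (3.73%) and 17 higher (2.05%, against 0.899% of all genes), and 783 were not called. Their median difference was -0.13. After quantile normalization 566 genes counted as lowered (3.98%), of which 78 were higher with HIF1A siRNA (13.8%, against 5.61%) and 17 lower, with a median of 0.04. The 17 higher on the deposited scale included TAF9B, LONRF2, ENC1, CCL2, FASN and S100B. IL7R, the interleukin-7 receptor gene, was lowered by hypoxia and was also lower with HIF1A siRNA, at 6.94, 6.36 and 5.76 against 8.05, 7.96 and 8.36 (difference -1.77, SE 0.24, adjusted p = 0.0018).

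A minority of hypoxia-raised genes were not called between the knockdowns, which does not show that their levels were alike. Of the 74 that were not called, 36 had a 95% interval of the difference that lay within 1.5-fold in both directions, which sets a bound on any difference for them. The 4 of these with the largest hypoxic rises, picked after their values were seen, were CBS, PCK2, SEMA4B and CEMIP. CBS, which makes cystathionine from homocysteine, rose by 1.34 in hypoxia and differed by -0.22 between the siRNAs (95% interval -0.47 to 0.03). PCK2, the mitochondrial phosphoenolpyruvate carboxykinase, rose by 1.04 and differed by -0.25 (-0.55 to 0.05). SEMA4B, a semaphorin gene, rose by 0.96 and differed by -0.22 (-0.47 to 0.04). CEMIP, a hyaluronan-binding protein gene, rose by 0.91 and differed by 0.06 (-0.16 to 0.29).

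Each of the 20 genes with the largest hypoxic rises was called lower with HIF1A siRNA on both scales. ALDOC, a glycolytic aldolase, measured 8.87, 9.06 and 8.42 against 10.78, 10.59 and 10.52 with HIF2A siRNA (difference -1.85, SE 0.15, adjusted p = 1.2e-04). ENO2, an enolase, measured 9.54, 9.63 and 9.19 against 11.27, 11.09 and 11.15 (difference -1.72, SE 0.12). ANGPTL4, an inhibitor of lipoprotein lipase, measured 7.36, 7.28 and 6.86 against 8.99, 8.50 and 8.81 (difference -1.60, SE 0.16). These 3 genes carry the motif in the promoters shown with FAM162A, but of the 20 genes 15 were in the promoter table and 6 held it. In the 3 genes the groups were apart by more than the spread within either. DEPP1, a gene induced by FOXO factors, differed by -1.57 (SE 0.20), VLDLR, a lipoprotein receptor, by -1.51 (SE 0.16) and PTGS2, the inducible cyclooxygenase, by -1.22 (SE 0.16). The smallest differences among the 20 were those of VEGFA and NDRG1, whose hypoxic rises were 2.37 and 3.12. VEGFA, the main endothelial growth factor, measured 9.46, 9.26 and 8.98 against 9.99, 10.07 and 10.22 (difference -0.86, SE 0.13, adjusted p = 0.0030). NDRG1, a stress-response gene, measured 11.30, 11.38 and 11.07 against 12.24, 12.03 and 12.08 (difference -0.87, SE 0.11). CP, the ferroxidase ceruloplasmin, differed by -1.09 and P4HA1, a collagen prolyl hydroxylase subunit, by -0.97. CP lost its call without HIF2A siRNA replicate 1 (highest adjusted p over the alternatives 0.0738), and P4HA1 without HIF2A siRNA replicate 1 or 3 (0.119).

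**Figure D4:**
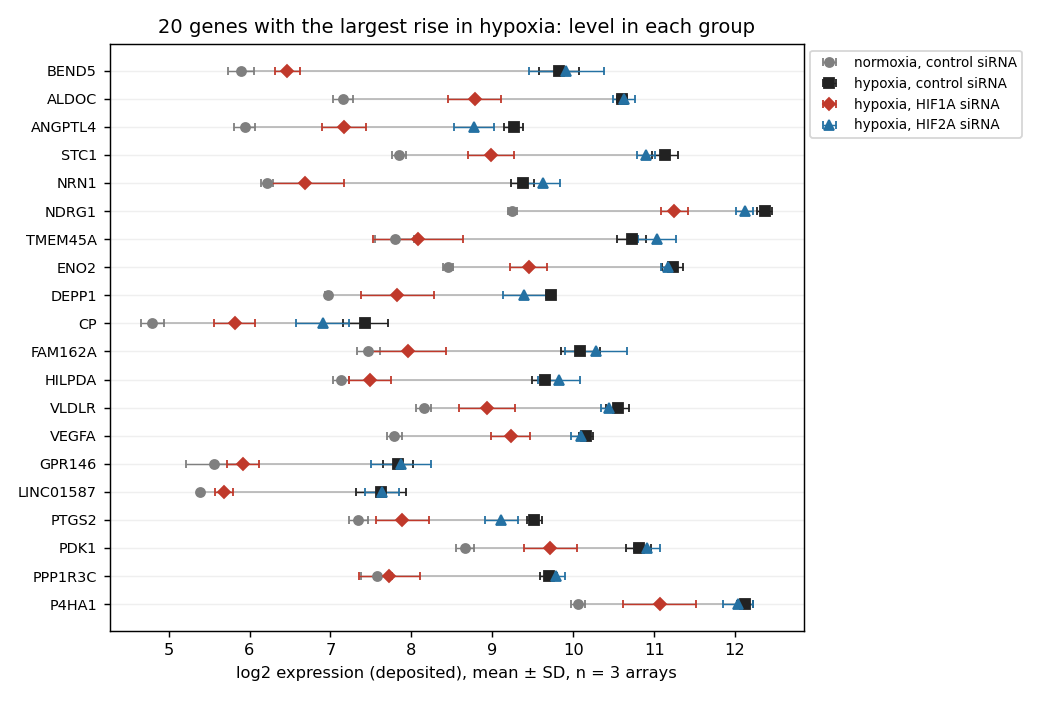
Mean log2 values in the 4 groups (± SD, n = 3) for the 20 genes with the largest hypoxic rises. In each gene the HIF2A siRNA mean lies above the HIF1A siRNA mean, with differences from -0.86 for VEGFA to -3.45 for BEND5.

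Genes of glucose metabolism were among those lower with HIF1A siRNA. Of 15 measured glycolytic genes, 10 rose in hypoxia. Between the knockdowns 8 were lower and 0 higher, with a median difference of -0.58 against -0.06 for all genes. After quantile normalization 7 were lower and 1 higher, with a median of -0.37 against 0.08. After ALDOC and ENO2 came HK1, a hexokinase, at 8.49, 8.64 and 8.18 against 9.56, 9.34 and 9.65 (difference -1.08, SE 0.13). PFKP, the platelet-type phosphofructokinase, measured 10.40, 10.43 and 10.19 against 11.28, 11.10 and 11.12 (difference -0.83, SE 0.10). The other called members were GPI, PGK1, PFKL and HK2, between -0.73 and -0.58. HK2 lost its call after quantile normalization, at -0.35 (limma adjusted p = 0.073). LDHA, lactate dehydrogenase A, differed by -0.01 (95% interval -0.28 to 0.27) and by 0.18 between hypoxic and normoxic controls. It had the highest mean level of all genes, at 13.5. PFKM, the muscle-type phosphofructokinase, differed by 0.13 and was the 1 member called higher after quantile normalization, at 0.37. The glucose transporter gene SLC2A1 differed by -0.43 (adjusted p = 0.054).

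The PFKFB and PDK enzymes regulate fructose bisphosphate and the fate of pyruvate. Of 7 measured members, 4 were lower and 0 higher on either scale, with a median of -0.57 (-0.52 after quantile normalization). PFKFB4, which makes the activator of phosphofructokinase, measured 8.96, 8.51 and 8.43 against 10.21, 9.94 and 10.19 (difference -1.48, SE 0.14, adjusted p = 2.3e-04). PDK3 and PDK1, kinases that restrain pyruvate dehydrogenase, differed by -1.41 (SE 0.22) and -1.19 (SE 0.16). PDK4 differed by -0.57 (SE 0.16, adjusted p = 0.045) and lost its call under 15 of 24 alternatives. PFKFB3 and PFKFB2 differed by -0.31 and -0.26 and were not called. PFKFB1 differed by 0.21 (adjusted p = 0.207), with all 3 HIF1A siRNA values above the HIF2A siRNA values.

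Most measured genes of glycogen metabolism were lower with HIF1A siRNA, 7 of 10, and 0 were higher, on either scale, with a median of -0.89 (-0.66 after quantile normalization). GYS1, the glycogen synthase, measured 8.06, 8.03 and 7.69 with HIF1A siRNA against 9.77, 9.57 and 9.60 with HIF2A siRNA (difference -1.72, SE 0.12, adjusted p = 6.9e-05). GBE1, the branching enzyme, measured 10.28, 10.02 and 9.75 against 11.40, 11.29 and 11.45 (difference -1.36, SE 0.13). PGM1, a phosphoglucomutase, differed by -1.02 (SE 0.13). The phosphorylase gene PYGL, of glycogen breakdown, was called too, at -0.79, while the phosphorylase genes PYGB and PYGM differed by -0.13 and 0.09 and were not. UGP2, which makes UDP-glucose, was called at -0.87 with a hypoxic change of -0.30 that was not called. The calls of PPP1R3C, GYS1, GBE1 and PGM1 held under each alternative tried.

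Within the HIF pathway itself, 4 of 10 measured subunits and oxygen sensors were lower and 1 higher (2 and 1 after quantile normalization). They were HIF1A, CITED2, ARNT2 and VHL on the lower side and EPAS1 on the higher. ARNT2, an alternative partner of the HIF subunits, measured 7.78, 7.71 and 7.48 against 8.36, 8.09 and 8.24 (difference -0.58, SE 0.12, adjusted p = 0.016). CITED2, a competitor of HIF for p300, differed by -0.65 (SE 0.15), but by -0.39 and without a call after quantile normalization. The partner ARNT differed by -0.48 and was not called. Leaving out HIF1A siRNA replicate 3, or HIF2A siRNA replicate 1 or 3, left HIF1A as the 1 member called lower.

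Feedback genes induced by HIF stood further apart. Of 6 measured repressors and feedback genes 5 were lower and 0 higher on either scale, with a median of -0.93 (-0.77 after quantile normalization). INSIG2, an inhibitor of SREBP processing, measured 8.53, 8.67 and 8.13 against 10.39, 10.22 and 10.41 (difference -1.90, SE 0.14, adjusted p = 7.1e-05). BHLHE41, a transcriptional repressor also of the clock, measured 7.06, 7.41 and 7.0 against 9.0, 8.84 and 9.20 (difference -1.86, SE 0.16). MXI1, an antagonist of MYC, differed by -0.99 (SE 0.12) and BHLHE40 by -0.88 (SE 0.15). BHLHE40 lost its call without HIF2A siRNA replicate 1 (highest adjusted p over the alternatives 0.102). EGLN3, a prolyl hydroxylase of HIF, differed by -0.23 and was not called.

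Among the oxygen-dependent demethylases, enzymes that use oxygen to remove methyl groups from histones or DNA, 8 of 14 were lower and 0 higher, with a median of -0.69 (7 lower and -0.55 after quantile normalization). TET1, which oxidises 5-methylcytosine, measured 5.82, 6.31 and 5.85 with HIF1A siRNA against 7.77, 7.17 and 8.0 with HIF2A siRNA (difference -1.65, SE 0.27, adjusted p = 0.0057). The histone demethylase gene KDM4C measured 7.29, 7.72 and 7.19 against 8.75, 8.52 and 8.87 (difference -1.32, SE 0.17). JMJD6 differed by -1.0 (SE 0.14) and KDM3A by -0.92 (SE 0.18). KDM4B, which hypoxia raised by 0.74, differed by -0.31 and was not called. Without HIF2A siRNA replicate 1 or 3, 5 members were called, and KDM3A was not among them.

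Secreted and vascular factors split. Of 21 measured members, 8 were lower and 0 higher, with a median of -0.24 (7 lower and -0.12 after quantile normalization). After STC1 and ANGPTL4 came ADM, the vasodilator adrenomedullin, at 9.44, 9.41 and 9.27 against 10.63, 10.37 and 10.41 (difference -1.10, SE 0.10, adjusted p = 2.1e-04). STC2 measured 8.48, 8.08 and 8.42 against 9.34, 9.29 and 9.26 (difference -0.97, SE 0.17). The insulin-like growth factor binding protein genes IGFBP5 and IGFBP3 differed by -0.94 and -0.64, and after quantile normalization IGFBP3 differed by -0.36 and was not called (adjusted p = 0.0715). ANGPT1, the ligand of the receptor TEK, was called at -0.57 with a hypoxic change of -0.05 that was not called. Values for TGFA, CXCL8, EDN1 and VEGFC lay between -0.26 and 0.06, without calls.

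Of 21 measured collagen and matrix genes 6 were lower and 0 higher, with a median of -0.12 (5 lower and 0.01 after quantile normalization, so that the sign of the median depends on the scale). PLOD2 and PLOD1, lysyl hydroxylases of collagen, differed by -1.17 (SE 0.17) and -0.78 (SE 0.12). P4HA2, a prolyl hydroxylase subunit, measured 11.14, 10.96 and 10.68 against 12.12, 12.05 and 12.22 (difference -1.20, SE 0.12, adjusted p = 3.2e-04). The dimmer of its single-symbol probe sets gave 0.17 (adjusted p = 0.545), so the probe sets of this gene disagree. FN1, fibronectin, differed by -0.63 and COL5A1 by -0.39, while COL1A1, raised by 0.77 in hypoxia, differed by -0.26 and was not called. The lysyl oxidase gene LOXL2, raised by 0.98, differed by -0.38 and was not called either (adjusted p = 0.0565). Without HIF2A siRNA replicate 1 or 3, 3 members were called lower.

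Of 9 measured genes of mitophagy and the BNIP3 family, 5 were lower and 0 higher on either scale, with a median of -0.67 (-0.52 after quantile normalization). BNIP3, a mitophagy receptor, measured 10.94, 11.37 and 10.57 against 12.10, 12.08 and 12.66 (difference -1.32, SE 0.28, adjusted p = 0.020). Its paralog BNIP3L measured 10.35, 9.94 and 9.72 against 11.06, 11.05 and 11.30 (difference -1.13, SE 0.15). MAP1LC3B, an autophagosome protein gene, differed by -0.88 (SE 0.13), and DDIT4, an inhibitor of mTORC1, by -0.67. PINK1, ULK1 and FUNDC1, which act in mitophagy without the BNIP3 proteins, differed by -0.09, 0.07 and -0.06 and were not called. BNIP3 lost its call without HIF1A siRNA replicate 3 or HIF2A siRNA replicate 1 or 3 (highest adjusted p 0.0932), and without HIF2A siRNA replicate 1 the list had 3 calls. Of 3 measured genes of pH regulation none was called (1 lower unadjusted), and CA12, a carbonic anhydrase, differed by -0.36 (adjusted p = 0.060).

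Genes known from the literature for a preference for 1 of the subunits were then set side by side. Of 22 measured genes on the HIF-1A list, 17 were lower with HIF1A siRNA and 0 higher, all 22 differences were below zero, and the median was -0.94 (16 lower and -0.77 after quantile normalization). Members overlap the lists above. Of 20 measured genes on the HIF-2A list, 5 were lower with HIF1A siRNA and 0 higher, with a median of -0.14 (2 lower and 0.01 after quantile normalization). Over all genes 8.53% were lower as deposited and 6.89% after quantile normalization. The 2 lists differed in hypoxia itself. Hypoxia raised 19 of 22 genes on the HIF-1A list (median change 1.65) and 5 of 20 on the HIF-2A list (median 0.12). On the HIF-2A list 5 genes averaged below 4.77 in both siRNA groups. No gene of the HIF-2A list was lower with HIF2A siRNA than with HIF1A siRNA by this test on either scale. EPAS1 itself was below its hypoxic control mean of 9.71 in both groups, at 8.23 with HIF1A siRNA and 7.12 with HIF2A siRNA. This comparison therefore cannot decide whether genes of the list depend on HIF-2A. FLT1, a VEGF receptor, measured 7.92, 8.31 and 7.48 with HIF1A siRNA against 8.81, 8.49 and 8.88 with HIF2A siRNA (difference -0.82, SE 0.20, adjusted p = 0.031). IGFBP3 measured 9.31, 8.90 and 8.82 against 9.83, 9.50 and 9.61 (difference -0.64, SE 0.14, adjusted p = 0.020). ITPR1, a calcium channel of the endoplasmic reticulum, differed by -0.64 (SE 0.17). The 5 calls, with CITED2 and MMP14, were each lost without HIF1A siRNA replicate 3, HIF2A siRNA replicate 1 or HIF2A siRNA replicate 3, and 3 of the list were called when any 1 normoxic control array was left out. The values of EPO, the erythropoietin gene, CCND1, cyclin D1, TGFA, a ligand of the epidermal growth factor receptor, and PLIN2, a lipid droplet coat, lay between 0.06 and 0.19. Their 95% intervals spanned zero, from -0.10 to 0.47 for EPO and from -0.16 to 0.29 for CCND1.

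**Figure D5:**
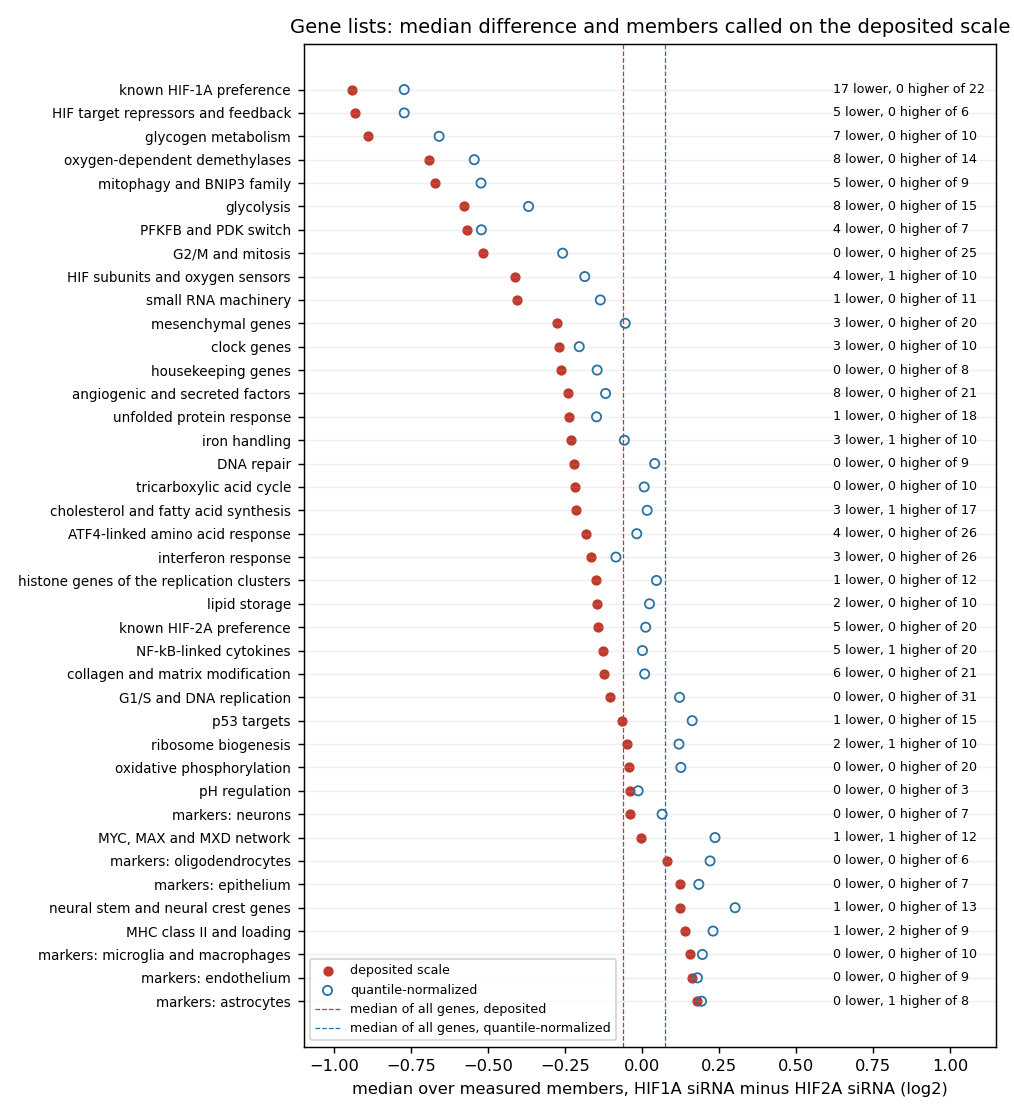
Median log2 difference HIF1A siRNA minus HIF2A siRNA of each gene list as deposited and after quantile normalization, with the number of members called lower and higher. The HIF-1A preference, feedback, glycogen, demethylase and mitophagy lists have medians of -0.94 to -0.67 as deposited, and oxidative phosphorylation lies at -0.04 and then 0.13.

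Mitochondrial and proliferation genes did not pass the test as members of their lists. Of 20 measured genes of oxidative phosphorylation limma called 0 on either scale (4 lower at an unadjusted p under 0.05), with a median of -0.04 (0.13 after quantile normalization). The unadjusted counts are read against all genes, of which 4590 of 14232 passed that limit in either direction. SDHC, a subunit of succinate dehydrogenase, had the largest value at 6.85, 7.40 and 4.55 against 8.33, 7.56 and 8.79 (difference -1.96, SE 0.65, adjusted p = 0.076), and its low value was on HIF1A siRNA replicate 3. None of 10 genes of the tricarboxylic acid cycle was called on either scale (3 lower unadjusted, median -0.22, and 0.01 after quantile normalization). Of 31 genes of G1/S and DNA replication, 27 fell in hypoxia (8.95% of all genes did), but limma called 0 between the knockdowns (2 lower unadjusted), with a median of -0.10. After quantile normalization 5 were higher with HIF1A siRNA and the median was 0.12. Of 25 G2/M genes 0 were called (13 lower unadjusted), with a median of -0.52 (1 higher and -0.26 after quantile normalization). KIF11, a mitotic kinesin, measured 7.55, 8.49 and 6.69 against 8.75, 8.28 and 9.01 (difference -1.10, SE 0.38, adjusted p = 0.082), and TTK, a spindle checkpoint kinase, differed by -0.99 (adjusted p = 0.080). Without HIF1A siRNA replicate 2, 8 of the G2/M genes were called lower, and without replicate 1, 4 were.

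Other lists had scattered calls. Of 26 genes on the ATF4 and amino acid list, 13 of which hypoxia raised, 4 were lower with HIF1A siRNA (median -0.18, and -0.02 after quantile normalization): VLDLR, STC2, DDIT3 and TRIB3, of which DDIT3 and TRIB3 lost their calls without HIF1A siRNA replicate 3 or HIF2A siRNA replicate 1 or 3. PSAT1, of serine synthesis, differed by -0.60 (adjusted p = 0.071) and ASNS, the asparagine synthetase, by -0.31 (adjusted p = 0.069). Of 20 NF-kB-linked genes 5 were lower and 1 higher, with a median of -0.13. After quantile normalization 4 were lower and 3 higher, with a median of 6.1e-04. IL1A, an interleukin gene, measured 4.75, 4.83 and 4.91 against 6.33, 5.80 and 6.39 (difference -1.34, SE 0.19, adjusted p = 0.0023), and IL1B differed by -0.92 (SE 0.11), while CCL2 was higher. Of 10 clock genes 3 were lower, NFIL3 (-1.22), BMAL1 (-0.91) and PER2 (-0.62), and 0 were called without HIF2A siRNA replicate 1 or replicate 3. Of 17 lipid synthesis genes (cholesterol and fatty acids) 3 were lower, SCD, the stearoyl-CoA desaturase (-0.82), ACLY, the ATP citrate lyase (-0.59), and INSIG1 (-0.52), and FASN was higher. The 3 lower calls were each lost without HIF2A siRNA replicate 1 or replicate 3. Of 10 iron genes, CP, the transferrin receptor gene TFRC (-0.62) and the haem oxygenase gene HMOX1 (-0.57) were lower and STEAP3, a ferrireductase, was higher (0.52), and none was called without HIF2A siRNA replicate 1.

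The last lists were the interferon response with 3 lower of 26, mesenchymal genes with 3 of 20, and MHC class II with 1 lower and 2 higher of 9. The MHC class II activator CIITA measured 8.11, 8.06 and 7.94 with HIF1A siRNA against 7.73, 7.49 and 7.58 with HIF2A siRNA (difference 0.44, SE 0.10, adjusted p = 0.022). The interferon genes DDX60 and IFI44 differed by -0.90 and -0.86, and both lost their calls without HIF1A siRNA replicate 3 or HIF2A siRNA replicate 1 or 3. The argonaute and Dicer genes of the small RNA machinery, which siRNA itself uses, had 1 call among 11, PRKRA at -0.64, with a median of -0.41 (-0.14 after quantile normalization). Housekeeping genes gave 0 calls among 8 (2 lower unadjusted) and a median of -0.26 (-0.15 after quantile normalization). Ribosome biogenesis had 2 lower and 1 higher of 10, the MYC, MAX and MXD network 1 and 1 of 12, lipid storage 2 lower of 10 (HILPDA and VLDLR), and neural stem genes 1 of 13 (L1CAM). The unfolded protein response had 1 lower of 18 (SEL1L), p53 targets 1 of 15 (SESN1), histone genes 1 of 12 (H2BC21) and DNA repair 0 of 9 (2 unadjusted). The balance turned on the quantile scale in several lists. Ribosome biogenesis then had 0 lower and 2 higher. The MYC network, p53 targets and neural stem genes had 1 lower and 3 higher each, and MHC class II 1 and 4. SEL1L (adjusted p = 0.0788) and H2BC21 (0.0525) lost their calls on that scale. The interferon response, lipid synthesis and lipid storage lists had 2 lower and 1 higher each, mesenchymal genes 2 and 0, iron genes 3 and 2, clock genes 3 and 1 and the small RNA machinery 1 and 1. For reference, 8.53% of all genes were lower and 0.899% higher as deposited, and 6.89% and 5.61% after quantile normalization. At an unadjusted p under 0.05, 4590 of 14232 genes passed as deposited, in either direction.

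Of 10 microglia and macrophage, 9 endothelial, 7 epithelial, 7 neuronal and 6 oligodendrocyte markers, limma called 0 on the deposited scale. After quantile normalization 1 microglial marker was called higher. An unadjusted p under 0.05 was found for 4590 of all 14232 genes, in either direction. In these lists 2 microglial, 2 endothelial and 1 oligodendrocyte marker were higher at that limit and 2 neuronal markers lower. Their medians were 0.16, 0.16, 0.12, -0.04 and 0.08. The summed level of microglial markers, as a mean per array, ranged from 5.07 to 5.14 with HIF1A siRNA and from 4.90 to 4.97 with HIF2A siRNA. The median level of these markers was 5.06. The dimmest group of all genes, with means up to 5.32, had a median difference of 0.09 as deposited. Brightness varied within these lists. PTPRC, EPCAM and EMCN, markers of leukocytes, epithelium and endothelium, averaged 2.45, 2.33 and 2.63 over the 12 arrays, near the bottom of the scale. The epithelial marker KRT8 averaged 11.44 with HIF1A siRNA and 11.29 with HIF2A siRNA, and the endothelial marker CLDN5 7.35 and 7.04. In both siRNA groups 3 of 10 microglial, 4 of 9 endothelial and 3 of 7 epithelial markers averaged below 4.77. Of 8 astrocyte markers S100B was the 1 called, at 10.99, 11.18 and 10.78 against 10.45, 10.43 and 10.12 (difference 0.65, SE 0.13, adjusted p = 0.014). Its call was lost without HIF2A siRNA replicate 3. All 12 arrays came from a single cultured tumour line. These markers are therefore read as transcript levels and not as numbers of cells of a type.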

How the data were processed

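RNA of LN229 cells was measured on 12 arrays, 3 per group. The deposited values were used as log2 intensities, 1 per probe set and array. The base was inferred from their range. Per the submitters' processing notes, Partek and the genome build hg18 were used. The sources used here do not give background correction, summarization or normalization, which could change every level.

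Of 22011 probe sets, 14432 have a single gene symbol in the platform annotation. A further 2408 have several, and 5171 are unnamed here. IDs of 14404 were found in RefSeq (GRCh38.p14), with 0 symbols updated. For the 197 genes with several such probe sets the one with the highest mean over the 12 arrays was used, which left 14232 genes. Group means were fitted over all 12 arrays and 22011 probe sets with limma 3.58.1 in R 4.3.3, with eBayes moderation. The Benjamini-Hochberg adjustment ran over the 14232 genes. The fit was tested on simulated data. Hypoxia-raised and hypoxia-lowered genes were called at a 1.5-fold change.

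The number of arrays limits the precision. Same-numbered arrays of the 2 siRNA groups deviated together at r = 0.03, -0.44 and -0.49. These values gave no sign that replicate numbers pair the samples. With so few arrays per group they cannot exclude such pairing. Alternatives covered normalization, probe set choice, dim genes, the arrays fitted, array weights and each array left out.

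The members, 40 gene lists and tests were chosen with earlier results of these data known. Named genes are the targets, the 15 largest differences in each direction among genes called on both scales without overlap between groups, up to 4 called members per list (2 of the largest where none is called) and the 20 largest hypoxic rises. Other list members, hypoxia-lowered genes and genes whose siRNA groups lay on opposite sides of the controls were named after their values were seen.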

Additional observations from a re-analysis of the deposited data

Results flagged for a closer look

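In 13 of the genes tracked here the 2 siRNA groups lay on opposite sides of the 3 hypoxic control values, 1 group wholly above and the other wholly below. A limma call between the siRNA groups was a condition for these 13, and the 10 largest such differences were tracked because of the pattern. The pattern also requires siRNA groups without overlap, so the calls between them are no separate support. The 2 separate departures from the controls share the control arrays, and with HIF2A siRNA none was called (over all 73 such genes limma called 0, with 4 lower and 19 higher at an unadjusted p under 0.05). Over all genes, 73 had this pattern, 56 with HIF1A siRNA below (0.393%) and 17 with it above (0.119%), and 53 of the 73 were called between the siRNA groups, 45 lower and 8 higher.

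B3GALT2, the galactosyltransferase, had the largest of these differences at -2.38. It measured 6.74, 6.34 and 6.28 with HIF1A siRNA, a mean of 7.82 in the hypoxic controls, and 8.84, 8.56 and 9.10 with HIF2A siRNA. Its change from the controls was -1.37 with HIF1A siRNA and 1.01 with HIF2A siRNA, and hypoxia itself moved it from 7.48 to 7.82. IL7R, the interleukin-7 receptor gene, differed by -1.77 and FGFBP2, a fibroblast growth factor binding protein gene, by -1.59. LMLN, a metallopeptidase gene, differed by -1.46, LRRC7, a leucine-rich repeat gene, by -1.27 and PRKAA2, a catalytic subunit of AMP-activated kinase, by -1.23. PRKAA2 measured 8.49, 8.09 and 7.73 against 9.34, 9.15 and 9.53, with a control mean of 8.84.

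P4HA2 differed by -1.20 with its brighter probe set, BRK1, an actin regulator, by -1.12, IFT70A, of intraflagellar transport, by -1.11, STC2 by -0.97, IL1B by -0.92 and the protease gene CTSS by -0.76. TMEM242 was the 1 of the 13 with HIF1A siRNA above, at a difference of 1.30. TMEM242 lost its call without HIF2A siRNA replicate 1 (adjusted p = 0.0517) and CTSS without HIF2A siRNA replicate 1 or 3. With the dimmer of its single-symbol probe sets BRK1 differed by -0.52 and was not called (adjusted p = 0.15).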

How the results depend on the processing

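As reported, 1214 genes were lower and 128 higher, 932 and 35 at 1.5-fold, and of the hypoxia-raised genes 229 were lower (median -0.81); of the hypoxia-lowered 31 were lower and 17 higher (median -0.13). In the same order, values that moved were as follows. Quantile normalization gave 799 higher, 594 and 186 at 1.5-fold, 17 and 78 hypoxia-lowered genes, and a raised median of -0.52. Cyclic loess gave 530 higher, 608 and 119, 18 and 66, and -0.52. Centring arrays on their medians gave 654 higher, 154 at 1.5-fold and 61 hypoxia-lowered genes higher. Fitting the 6 arrays alone, with fewer samples behind the spread, gave 123 lower and 4 higher, the same 123 and 4 at 1.5-fold, 87 raised genes lower, and 1 and 1 hypoxia-lowered genes. The 6 arrays with quantile normalization gave 142 and 23, again 142 and 23 at 1.5-fold, 100, 1 and 9, and -0.52. Without HIF1A siRNA replicate 3 and with quantile normalization the values were 373 lower, 274 and 90 at 1.5-fold, 1 and 46, and medians of -0.48 and 0.091. A 2-fold limit gave 237 and 5, 108 raised genes lower, 5 and 8 lowered, and -1.09. Whether the replicate numbers pair the samples is not known. With the replicate block 85 genes were higher and 11 hypoxia-lowered genes higher, and with block and quantile normalization 706 lower, 425 higher, 477 and 152 at 1.5-fold, 8 and 56, and -0.50. The quantile-normalized fit of 6 arrays and leaving out control arrays were added after seeing the data. The causes of these moves were otherwise not tested.

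Leaving out 1 array gave 254 to 2338 lower, 11 to 243 higher, 241 to 1847 and 8 to 85 at 1.5-fold, 136 to 248 raised genes lower, 3 to 88 and 4 to 22 hypoxia-lowered genes, and medians of -0.90 to -0.70 and -0.25 to 1.6e-04. The lower count was 2338 without HIF1A siRNA replicate 2, 383 without replicate 3, 254 without HIF2A siRNA replicate 1, 295 without replicate 3, and 815, 776 and 720 without the normoxic control replicates 1, 2 and 3. The share of raised genes called lower stayed between 47.1% and 79.5%. P4HA2 reversed with its dimmest probe set (0.17). Of 87 genes called lower in the set chosen by rule, 41 kept their calls under every alternative, 44 kept them with the 6 arrays alone, 53 without HIF2A siRNA replicate 1 and 55 without replicate 3. Other genes named here as lower were not followed in this way. No measure of background was available, so dim genes have uncertain sizes.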

Other observations

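Probe sets outside the single-symbol genes also separated the knockdowns. With adjustment over all 22011 probe sets, 135 of 2408 probe sets with several symbols were lower with HIF1A siRNA and 12 higher (5.61% and 0.498%). Of 5171 without a symbol here, 125 were lower and 25 higher (2.42% and 0.483%). For the single-symbol probe sets the shares were 6.91% and 0.665%. These probe sets are not named here.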
